A study of Mus musculus with 9 samples.

Results

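The genes of protein folding, translocation, quality control and stress sensing in the endoplasmic reticulum (ER) were examined in mouse B cells. The set was a list of 49 gene symbols, given by name and grouped by known function. Of these, 48 were among the 22178 genes of the expression table, and Mzb1 was not analysed here. The 48 comprised 19 chaperones and folding enzymes, 14 genes of the translocon and signal peptidase, 9 genes of ER-associated degradation and 6 genes of stress sensing. All 48 had a mean of at least 1 TPM, a transcript abundance scaled to transcript length and library total, over the 9 libraries and were tested together with the other genes above that level, 11099 in all.

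Poly(A) RNA was sequenced from 3 libraries each of B2B1, B1 and B2 cells. B2B1 cells were peritoneal, carried the strain label B1-8VH12/Vk4 and had undergone an induced switch of the B cell receptor (BCR) some 30 days earlier. B1 cells were also peritoneal, under the same strain label. B2 cells were splenic, under the label VH12B1-8/Vk4. Every group was described as backcrossed C57BL/6. The sources used here give neither the ages of the mice, nor the number of mice behind a library, nor the driver of the switch. Tissue and strain label therefore changed together with cell type in both comparisons with B2, and the contributions of the 3 cannot be told apart. Sex-linked genes, given below, also differed between libraries and groups. Because the labels do not say that libraries came from separate mice, the p-values below cover the scatter of these libraries alone.

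Secretory and membrane proteins, antibodies among them, enter the ER through the Sec61 channel, lose their signal peptide and fold there with the help of chaperones, lectins and disulfide isomerases. Chains that fail to fold are extracted to the cytosol and degraded. The membrane sensors IRE1, ATF6 and PERK report an excess of unfolded protein: IRE1 splices Xbp1 mRNA, ATF6 is cleaved to release a transcription factor, and PERK slows translation and raises ATF4. In B cells this machinery is known for its expansion in antibody-secreting cells, and B-1 cells of the body cavities are known as a source of natural IgM. Total Xbp1 mRNA does not show splicing, so the gene-level values below say nothing of IRE1 activity, nor of cleaved ATF6 or phosphorylated PERK.

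Both ATF6 and XBP1 are known to act through the ER stress response element (ERSE), CCAAT followed after 9 bases by CCACG. A shorter form, ERSE-II, is ATTGG, any 1 base and CCACG. Promoter windows from RefSeq (GRCm38.p6), of 300 bases with 250 before the transcript start and 50 from it, were found for 39 of the 48 genes and searched on both strands for exact matches. An ERSE was present in 9 of the 39 (23.1%), against 37 of 27025 genes with a window in the genome (0.137%). An ERSE-II was present in 2 of the 39 (5.13%), against 12 of all genes (0.0444%). The letters TGACG followed directly by TGG, a core sequence bound by XBP1, were in no window of the 39 genes and in 193 of all genes (0.714%). The elements were searched because they are known ones of the unfolded protein response, and the list holds known genes of that response. The shares are therefore a description and not a test. These matches describe sequence only and do not show binding.

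The 250 bases upstream of 3 genes are given to show the element in a chaperone gene that did not pass the test in any comparison (Hspa5) and in 2 genes that did (Derl3 and Creld2). Each is on the plus strand and runs 5′ to 3′ toward the start of its gene, and capitals mark the 5-letter ends of the ERSE. Hspa5 lies at chr2:34771840-34772089, Derl3 at chr10:75893148-75893397 and Creld2 at chr15:88819396-88819645. The element reads forward in Hspa5, from 65 bases before the start, and in reverse complement in the other 2, from 156 bases before the start of Derl3 and from 126 bases before that of Creld2.
Hspa5: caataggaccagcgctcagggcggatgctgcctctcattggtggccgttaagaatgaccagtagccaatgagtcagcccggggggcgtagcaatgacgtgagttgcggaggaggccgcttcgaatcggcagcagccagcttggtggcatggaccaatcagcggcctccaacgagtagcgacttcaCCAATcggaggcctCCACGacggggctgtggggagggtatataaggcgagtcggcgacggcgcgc
Derl3: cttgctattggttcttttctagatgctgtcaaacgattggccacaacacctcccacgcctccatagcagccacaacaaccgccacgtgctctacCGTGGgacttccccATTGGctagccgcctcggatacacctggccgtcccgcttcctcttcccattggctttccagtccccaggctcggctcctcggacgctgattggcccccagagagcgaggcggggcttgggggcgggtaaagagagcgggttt
Creld2: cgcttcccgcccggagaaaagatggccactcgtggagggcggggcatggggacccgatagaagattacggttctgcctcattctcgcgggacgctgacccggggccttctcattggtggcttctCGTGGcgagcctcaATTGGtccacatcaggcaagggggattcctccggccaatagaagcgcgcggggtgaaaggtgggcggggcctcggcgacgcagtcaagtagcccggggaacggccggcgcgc

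The matches in the other 8 genes are shown on the strand of the gene, so that the spacing and the variable middle bases can be compared. Those of Hsp90b1 (its second match) and Calr read in reverse complement, those of Dnajb11 and Herpud1 are of the ERSE-II form, and that of Dnajb11 begins at base 8 of the transcript.
Hsp90b1, first match: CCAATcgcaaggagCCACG
Hsp90b1, second match: CGTGGtgaggcacgATTGG
Dnajc3: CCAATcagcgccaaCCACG
Calr: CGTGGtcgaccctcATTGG
Canx: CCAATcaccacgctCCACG
Pdia6: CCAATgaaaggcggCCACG
Syvn1: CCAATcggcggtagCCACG
Herpud1: ATTGGgCCACG
Dnajb11: ATTGGcCCACG

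Values are TPM, which divide by transcript length, so that levels can be compared between genes of a library. The read depth behind them is unknown. The genes in the table summed to between 894515 and 943043 TPM per library, and none of the 36 pairs of libraries held identical values. Summed B cell markers were 9528 to 10790 TPM in B2B1, 9418 to 11540 in B1 and 10670 to 10900 in B2 libraries. Markers of B-1 cells summed to 2448 to 2956 TPM in B2B1, 1593 to 1856 in B1 and 39.8 to 43.5 in B2 libraries, although Cd5 itself averaged 1.46 TPM in B2B1, 18.8 in B1 and 0.874 in B2 cells. Macrophage markers summed to 151.9 to 354.3 TPM in B2B1, 118.7 to 162.8 in B1 and 3.07 to 4.86 in B2 libraries. Of the 7 macrophage markers, Itgam, which B-1 cells also express, averaged 105.5 TPM in B2B1, 105.6 in B1 and 2.24 in B2 cells. Emr1, which encodes the macrophage antigen F4/80, had 52.0, 39.9 and 40.1 TPM in B2B1, 19.7, 13.6 and 20.9 TPM in B1 and at most 0.448 TPM in B2 libraries, and passed the test as higher in B2B1 and in B1 than in B2 and in B2B1 than in B1. Lyz2 was at 22.3 to 180.9 TPM in B2B1, 1.22 to 30.9 in B1 and at most 1.51 in B2 libraries. The other 4 (Csf1r, Cd14, Fcgr1 and Mertk) were at most 2.13 TPM in any library. T cell markers summed to 20.1 to 25.9 TPM in B2B1, 25.9 to 32.2 in B1 and 13.0 to 15.9 in B2 libraries, with Cd3e at most 0.0837 TPM. Lck averaged 17.9 TPM in B2B1, 12.4 in B1 and 6.72 in B2 cells, and passed as higher in both peritoneal groups. Cd3g averaged 0.372 TPM in B2B1, 7.81 in B1 and 0.122 in B2 cells, and passed as higher in B1 than in B2. Cd3d averaged 3.48 TPM in B2B1, 7.41 in B1 and 5.10 in B2 cells. Natural killer, neutrophil, mast cell, dendritic, erythroid and stromal markers summed to at most 5.38 TPM in any B2B1 or B1 library and to at most 20.0 TPM in any B2 library. Whether other cell types contributed to the differences below was not tested.

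In B2B1 cells, 24 of the 48 ER genes were higher than in B2 cells and 6 were lower, while 18 did not pass the test (limma on log2(TPM + 1), Benjamini-Hochberg adjusted p under 0.05 over all genes tested). Among all genes tested, 21% were higher and 42% were lower. In B1 cells, 16 of the 48 were higher than in B2 and 4 were lower, with 18% of all genes higher and 33.9% lower. The median log2 fold change of the 48 was 0.30 for B2B1 against B2 and 0.20 for B1 against B2, where the medians over all genes were -0.19 and -0.14. Scaling the libraries by the median of ratios shifted the median of all genes by 0.19 and 0.14 in these comparisons. The distance of the 48 from the median of all genes remained 0.50 and 0.34 on that scale, against 0.49 and 0.34 in the TPM as deposited. With this scaling, 30 ER genes were higher and 5 lower in B2B1 than in B2, where 3384 of all genes were higher and 3160 lower. In B1 against B2, 24 ER genes were higher and 2 lower, where 2770 of all genes were higher and 2537 lower. The calls gained in B2B1 against B2 were those of Canx, Derl2, Dnajb9, Edem2, Pdia4 and Sec11a, and in B1 against B2 those of Eif2ak3, Herpud1, Manf, Sdf2l1, Sec61a1, Spcs1, Spcs2 and Ssr3. No ER gene that passed the test in the TPM as deposited changed sign.

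Groups did not overlap for 31 of the 48 genes between B2B1 and B2, with 72.2% of all genes in the background, and for 25 of the 48 between B1 and B2, with 61.7% of all genes. Genes that passed the test with a log2 fold change of at least 1 upward numbered 7 of the 48 in B2B1 against B2 (8.16% of all genes) and 4 of the 48 in B1 against B2 (6.97% of all genes). One member, Fkbp11, was lower by at least 1 in B2B1 against B2 (9.11% of all genes), and none was in B1 against B2 (6.34% of all genes). Both comparisons used the same 3 B2 libraries, so their values are not independent.

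**Figure D1:**
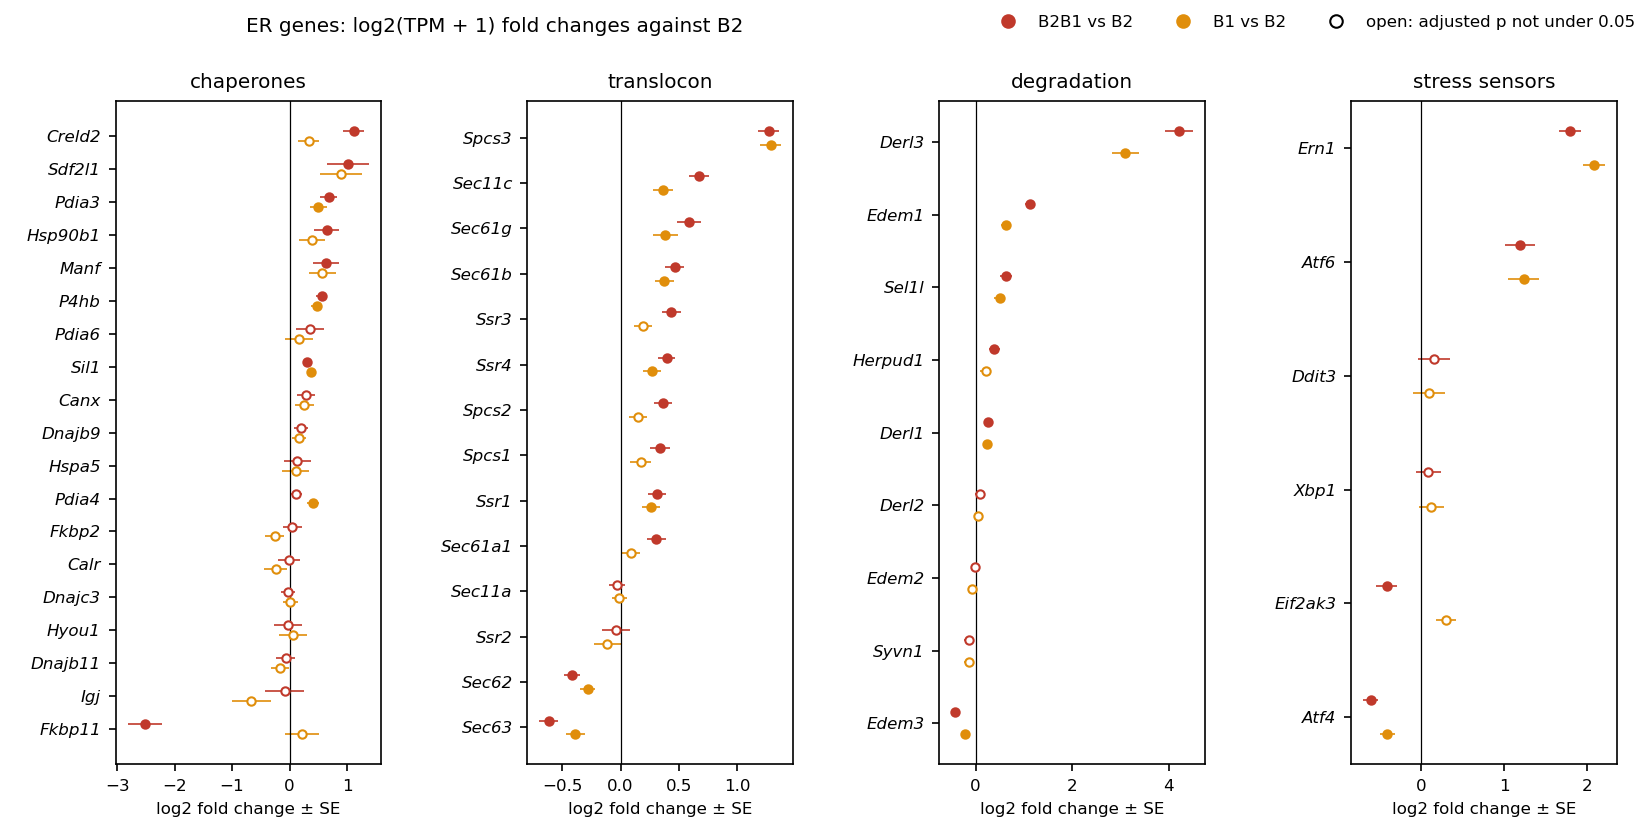
Log2 fold changes with their standard errors for all 48 genes, in 4 panels by role, for B2B1 against B2 (red) and B1 against B2 (orange). Open points did not pass the test. Derl3 lies furthest right in the degradation panel, Fkbp11 lies far left for B2B1 only in the chaperone panel, and most other points lie between 0 and 1.

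The summed TPM of each role group give the size of the machinery as a share of the measured mRNA. The 48 genes together summed to 6507 ± 713.7 TPM in B2B1, 6087 ± 856.8 in B1 and 5123 ± 350.8 in B2 cells (SD, n = 3 each). In bulk samples, a different number of cells expressing a gene and a different amount of RNA per cell cannot be told apart. The 14 genes of the translocon and signal peptidase summed to 1732 to 2010 TPM in B2B1, 1571 to 1793 in B1 and 1386 to 1400 in B2 libraries. The 9 degradation genes summed to 767.0 to 876.5 TPM in B2B1, 676.0 to 740.4 in B1 and 591.1 to 617.2 in B2 libraries. For both of these role groups every B2B1 and every B1 library was above every B2 library. The 19 chaperones and folding enzymes summed to 2906 to 3935 TPM in B2B1, 2708 to 4162 in B1 and 2441 to 2998 in B2 libraries, ranges that overlapped. The 6 stress sensing genes summed to 314.1 to 380.9 TPM in B2B1, 379.4 to 425.4 in B1 and 290.5 to 328.6 in B2 libraries, so that B1 was above B2 without overlap and B2B1 overlapped both.

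**Figure D2:**
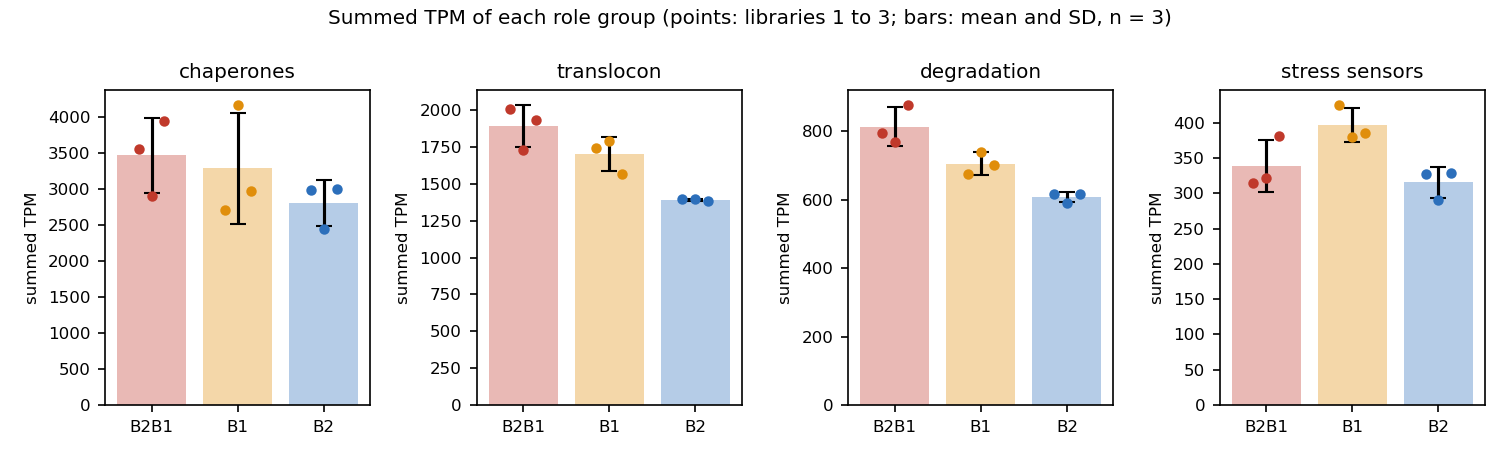
Summed TPM of the genes of each role group in B2B1, B1 and B2 cells, with 1 point per library, bars at the mean and error bars of 1 SD (n = 3). Translocon and degradation sums of all B2B1 and B1 libraries lie above those of B2, while the chaperone points spread widely and overlap.

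Among the chaperones and folding enzymes, 7 of 19 were higher and 1 was lower in B2B1 than in B2, and 4 were higher and 0 lower in B1 than in B2. Beside the shares of all genes (21% higher and 42% lower in B2B1, 18% higher and 33.9% lower in B1), the number higher in B1 was close to the background. Hspa5 encodes BiP, the central Hsp70 chaperone of the ER. It had 415.0, 390.0 and 589.7 TPM in B2B1 libraries, 340.9, 634.2 and 418.3 TPM in B1 libraries and 459.7, 354.9 and 442.7 TPM in B2 libraries. All 3 groups overlapped, and the log2 fold changes were 0.13 ± 0.23 (SE) in B2B1 against B2 and 0.11 ± 0.23 in B1 against B2 (limma, adjusted p = 0.637 and 0.72). Calr, the lectin chaperone calreticulin, had 582.2, 484.4 and 640.0 TPM in B2B1, 389.2, 673.4 and 428.2 TPM in B1 and 614.2, 495.0 and 606.0 TPM in B2 libraries, again with overlap. The BiP cochaperones Dnajb9, Dnajb11 and Dnajc3, the nucleotide exchange chaperone Hyou1, the lectin Canx, the disulfide isomerase Pdia6, the prolyl isomerase Fkbp2 and the joining chain of IgM and IgA (Igj) also passed the test in neither comparison of the TPM as deposited. Igj was low in every library, at 1.66 to 7.64 TPM.

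Among the disulfide isomerases, Pdia3 and P4hb rose in both peritoneal groups. Pdia3, which acts on glycoproteins held by calnexin and calreticulin, had 353.1, 267.8 and 353.4 TPM in B2B1, 246.6, 340.8 and 274.7 TPM in B1 and 216.6, 173.8 and 214.7 TPM in B2 libraries. No B2 library reached any B2B1 or B1 library. Its log2 fold changes were 0.68 ± 0.15 in B2B1 and 0.50 ± 0.15 in B1 against B2 (limma, adjusted p = 0.00369 and 0.0205), and the difference in B1 did not pass without B1 library 2 or without B2 library 2. P4hb, protein disulfide isomerase itself, averaged 191.3 ± 5.41 TPM in B2B1, 180.8 ± 27.1 in B1 and 129.3 ± 6.23 in B2 cells (SD, n = 3), with no overlap with B2. It rose by 0.56 ± 0.10 in B2B1 and by 0.47 ± 0.10 in B1 on the log2 scale (adjusted p = 0.000819 and 0.00301, limma). Pdia4, another member of the family, had 449.9, 355.8 and 434.5 TPM in B2B1, 501.9, 523.2 and 482.8 TPM in B1 and 356.2, 363.4 and 418.5 TPM in B2 libraries. All B1 libraries were above the rest, and it rose in B1 against B2 (log2 fold change 0.41 ± 0.10, adjusted p = 0.0071), whereas B2B1 differed by 0.12 ± 0.10 from B2 (adjusted p = 0.311) and by -0.29 ± 0.10 from B1 (adjusted p = 0.0718, limma).

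Several partners of BiP were called in B2B1 against B2 with groups that varied widely. Hsp90b1, the ER form of Hsp90, had 665.7, 470.2 and 719.0 TPM in B2B1, 407.3, 680.5 and 481.3 TPM in B1 and 434.3, 311.3 and 434.1 TPM in B2 libraries. Every B2B1 library was above every B2 library, and B1 overlapped both. The log2 fold change was 0.65 ± 0.22 in B2B1 against B2 (adjusted p = 0.0313) and 0.39 ± 0.22 in B1 against B2 (adjusted p = 0.171, limma). Sdf2l1, a partner of the BiP cochaperone Dnajb11, had 60.7, 44.5 and 81.0 TPM in B2B1, 37.2, 101.8 and 43.6 TPM in B1 and 35, 22.8 and 31.0 TPM in B2 libraries. It rose by 1.02 ± 0.36 in B2B1 against B2 (adjusted p = 0.0339, limma), and in B1 it differed from B2 by 0.89 ± 0.36 (adjusted p = 0.0669), with no overlap with B2 in either comparison. Manf, a BiP-binding protein that can be secreted, followed a like course, at 73.3 ± 14.8 TPM in B2B1, 71.5 ± 24.3 in B1 and 46.5 ± 6.73 in B2 cells, with log2 fold changes against B2 of 0.64 ± 0.23 in B2B1 (adjusted p = 0.0357) and 0.57 ± 0.23 in B1 (adjusted p = 0.063, limma). The calls of Hsp90b1, Sdf2l1 and Manf in B2B1 against B2 were lost under several alternatives, among them leaving out B2B1 library 1 or 3 or B2 library 2. Sil1, a nucleotide exchange factor of BiP, was lower in level and steadier, at 24.9 ± 1.74 TPM in B2B1, 26.0 ± 1.04 in B1 and 19.9 ± 0.879 in B2 cells, and rose in both (adjusted p = 0.00611 for B2B1 and 0.00286 for B1, limma).

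Creld2 and Fkbp11 separated B2B1 from both other groups. Creld2, an ER-resident protein with EGF-like domains whose gene responds to ER stress, had 86.7, 89.5 and 121.2 TPM in B2B1, 46.7, 74.4 and 52.1 TPM in B1 and 46.3, 39.3 and 48.9 TPM in B2 libraries. Every B2B1 library was above every other library, and B1 and B2 overlapped. The log2 fold change was 1.12 ± 0.19 against B2 (adjusted p = 7e-04) and 0.78 ± 0.19 against B1 (adjusted p = 0.0203), while B1 differed from B2 by 0.33 ± 0.19 (adjusted p = 0.16, limma). The call against B1 was lost with only these groups in the fit and without B2B1 library 3 or B1 library 1 or 3. Fkbp11 encodes a membrane-bound prolyl isomerase of the ER known from secretory tissues and lies at chr15:98724368-98728198. It had 0.715, 3.01 and 2.39 TPM in B2B1, 19.2, 20.9 and 14.4 TPM in B1 and 16.2, 12.4 and 18.1 TPM in B2 libraries. B2B1 libraries were below all others, and B1 and B2 overlapped. It fell by 2.52 ± 0.30 in B2B1 against B2 (adjusted p = 9.25e-05) and by 2.73 ± 0.30 against B1 (adjusted p = 0.000571), while B1 differed from B2 by 0.21 ± 0.30 (adjusted p = 0.578, limma).

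In the channel of the translocon, all 3 subunits of Sec61 were higher in B2B1 than in B2. Sec61a1, the pore subunit, had 113.7, 113.8 and 115.7 TPM in B2B1, 92.9, 111.9 and 91.0 TPM in B1 and 93.9, 90.1 and 92.5 TPM in B2 libraries. B2B1 lay above both other groups, and it rose in B2B1 against B2 (log2 fold change 0.31 ± 0.08, adjusted p = 0.00715, limma). The small subunits Sec61b and Sec61g rose in both B2B1 and B1 without overlap with B2. Sec61g averaged 156.7 ± 22.6 TPM in B2B1, 135.2 ± 8.26 in B1 and 103.2 ± 6.44 in B2 cells, with log2 fold changes of 0.59 ± 0.11 in B2B1 and 0.39 ± 0.11 in B1 (adjusted p = 0.00112 and 0.0137, limma), and its call in B1 was lost without B2 library 1.

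The accessory subunits Sec62 and Sec63 went the other way. They serve the entry of proteins after translation, and Sec63 recruits BiP to the channel. Sec63 had 28.4, 24.1 and 28 TPM in B2B1, 30.4, 33.5 and 30.7 TPM in B1 and 41.6, 39.7 and 43.6 TPM in B2 libraries. The 3 groups did not overlap. It fell by 0.62 ± 0.08 in B2B1 and by 0.39 ± 0.08 in B1 on the log2 scale (adjusted p = 0.000164 and 0.00333, limma), and B2B1 differed from B1 by -0.23 ± 0.08 (adjusted p = 0.08). Sec62 averaged 40.9 ± 1.24 TPM in B2B1, 44.9 ± 3.24 in B1 and 54.8 ± 2.07 in B2 cells, and fell by 0.42 ± 0.07 in B2B1 and by 0.28 ± 0.07 in B1 (adjusted p = 0.000639 and 0.00695, limma). The fall of Sec62 in B1 did not pass when libraries were scaled by the median of ratios or quantile normalized.

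Of the 4 subunits of the translocon-associated protein complex, which assists the entry of some chains, Ssr1 and Ssr4 rose in both B2B1 and B1, Ssr3 rose in B2B1, and Ssr2 did not pass. In B1 the call of Ssr1 was lost without B2 library 1 or 3 or B1 library 1, and that of Ssr4 without B2 library 3. Ssr3 averaged 129.5 ± 11.7 TPM in B2B1, 108.8 ± 7.19 in B1 and 95.1 ± 2.84 in B2 cells. Among the subunits of signal peptidase, which removes the signal peptide, the noncatalytic Spcs3 changed most. It had 183.2, 143.1 and 152.6 TPM in B2B1, 160.5, 166.2 and 155.4 TPM in B1 and 68.5, 65.1 and 61.9 TPM in B2 libraries. The lowest peritoneal library was far above the highest B2 library, and the log2 fold changes were 1.27 ± 0.09 in B2B1 and 1.29 ± 0.09 in B1 (adjusted p = 4.31e-06 and 5.26e-06, limma). Exons of Spcs3 overlap those of Asb5 on the opposite strand, and the sources used here do not state whether counting used strand, so its value is uncertain. The same holds for Pdia3, Pdia6, Manf, Spcs1, Derl2, Syvn1 and Ddit3, which overlap other protein-coding genes on the opposite strand. On the same strand, exons of Sec11a overlap those of Nmb and exons of Manf those of Rbm15b, so these values are uncertain too.

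The 2 catalytic subunits of signal peptidase differed from each other. Sec11c had 478.4, 401.6 and 484.9 TPM in B2B1, 398.9, 363.9 and 336.5 TPM in B1 and 295.0, 277.4 and 278.1 TPM in B2 libraries, in that order with no overlap. It rose in B2B1 against B2 by 0.68 ± 0.09 (adjusted p = 0.000165), in B1 against B2 by 0.37 ± 0.09 (adjusted p = 0.0072) and in B2B1 against B1 by 0.31 ± 0.09 (adjusted p = 0.04, limma). The last call was lost in 11 of the alternatives. Its counterpart Sec11a stayed within 96.7 to 113.3 TPM over all 9 libraries and passed in no comparison of the TPM as deposited. In B2B1 against B2 its sign turned under both scalings, and under the median of ratios it passed as higher. The small subunits Spcs1 and Spcs2 rose in B2B1 against B2 (adjusted p = 0.00917 and 0.00264, limma).

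Degradation genes held the largest change of the set. Derl3 encodes derlin-3, a membrane protein through which misfolded glycoproteins leave the ER, and lies at chr10:75893398-75895941. It had 85.2, 59.3 and 87.5 TPM in B2B1, 24.6, 54.3 and 31.1 TPM in B1 and 2.53, 2.82 and 4.32 TPM in B2 libraries. The 3 groups did not overlap, although the highest B1 library came close to the lowest B2B1 library. On the log2(TPM + 1) scale, which understates the change of genes with low values, Derl3 was 18.6-fold higher in B2B1 and 8.59-fold higher in B1 than in B2 (adjusted p = 3.34e-06 and 2.84e-05, limma). It was 2.16-fold higher in B2B1 than in B1 (log2 fold change 1.11 ± 0.28, adjusted p = 0.0272), a call lost with only these groups in the fit and without B2B1 library 1 or 3 or B1 library 1 or 3. Its relatives differed in size of change. Derl1 rose modestly, to 88.1 ± 3.37 TPM in B2B1 and 86.4 ± 5.40 in B1 cells, against 73.0 ± 3.31 in B2 cells, with the call in B1 lost without B2 library 3. Derl2 passed in no comparison of the TPM as deposited.

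Among the EDEM proteins, which direct the trimming of mannose that marks glycoproteins for degradation, Edem1 and Edem3 changed in opposite directions. Edem1 had 140.2, 106.6 and 119.1 TPM in B2B1, 81.0, 88.4 and 88.5 TPM in B1 and 56.4, 57.9 and 50.7 TPM in B2 libraries, with no overlap of any groups. It rose by 1.13 ± 0.10 in B2B1 against B2 (adjusted p = 1.64e-05), by 0.64 ± 0.10 in B1 against B2 (adjusted p = 0.000735) and by 0.49 ± 0.10 in B2B1 against B1 (adjusted p = 0.0109, limma). Edem3 averaged 15.6 ± 0.336 TPM in B2B1, 18.3 ± 0.952 in B1 and 21.4 ± 0.738 in B2 cells, also with no overlap. It fell by 0.43 ± 0.07 in B2B1 and by 0.21 ± 0.07 in B1 (adjusted p = 0.000565 and 0.0283, limma), and the call in B1 was lost in 7 alternatives, both scalings among them. Edem2 passed in no comparison of the TPM as deposited, but in B2B1 against B2 its sign turned and it passed as higher under both scalings.

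Of the ubiquitin ligase complex in the ER membrane, the adaptor Sel1l rose and the ligase Syvn1 did not pass. Sel1l had 59.3, 50.3 and 64.7 TPM in B2B1, 48.0, 62.5 and 48.1 TPM in B1 and 38.5, 34.5 and 37.8 TPM in B2 libraries. Every B2B1 and B1 library was above B2 (log2 fold changes 0.63 ± 0.12 in B2B1 and 0.50 ± 0.12 in B1, adjusted p = 0.00174 and 0.00838, limma). Syvn1 averaged 182.6 ± 24.7 TPM in B2B1, 183.5 ± 17.8 in B1 and 200.3 ± 10.3 in B2 cells. Herpud1, a scaffold of the same complex, had 165.4, 223.5 and 226.2 TPM in B2B1, 184.9, 172.6 and 183.5 TPM in B1 and 152.9, 145.6 and 168.0 TPM in B2 libraries. The lowest B2B1 library lay within the B2 range. It rose in B2B1 against B2 (log2 fold change 0.38 ± 0.12, adjusted p = 0.0173, limma), a call lost without B2 library 1 or 2 or B2B1 library 2 or 3.

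**Figure D3:**
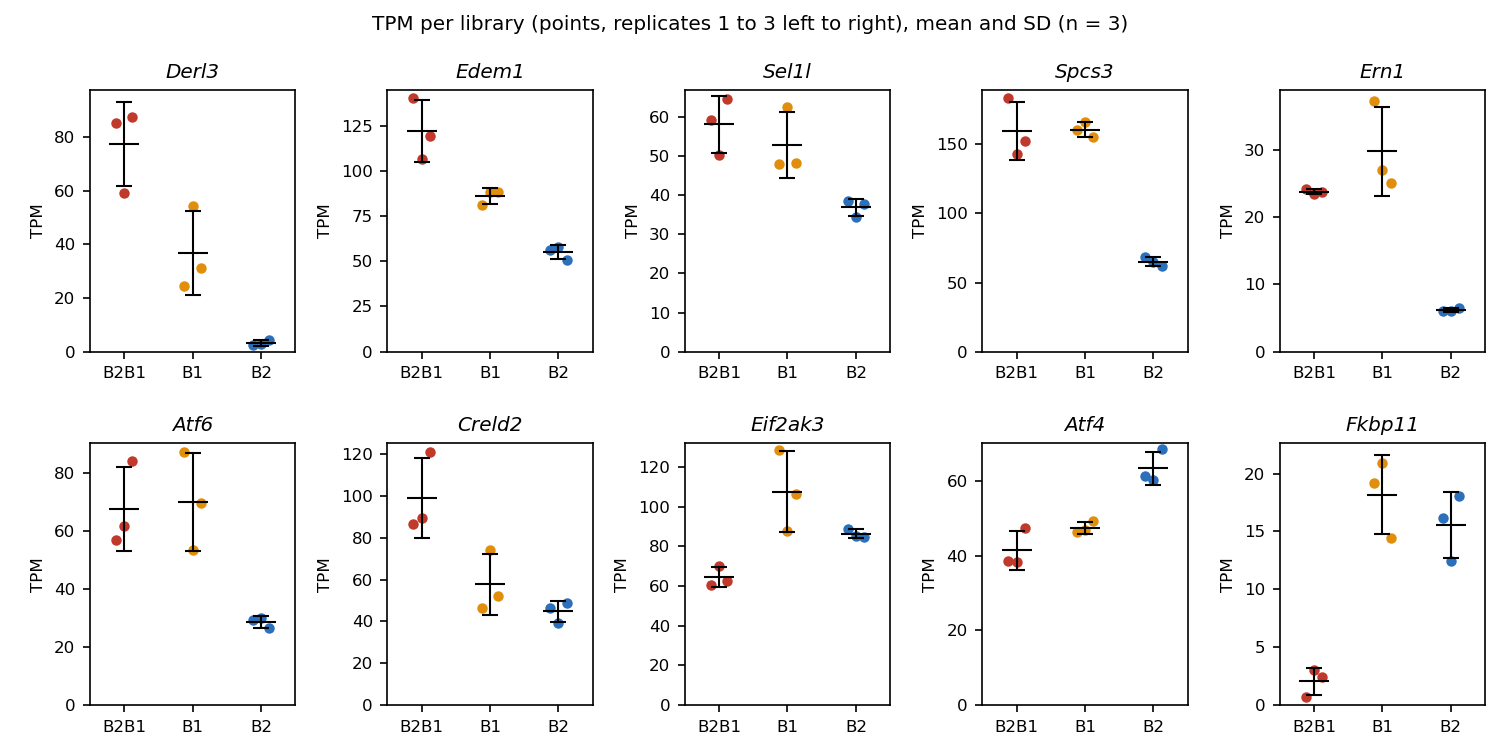
TPM of 10 genes in each library of B2B1, B1 and B2 cells, with the mean and SD (n = 3). Derl3, Edem1, Sel1l, Spcs3, Ern1 and Atf6 are higher in both peritoneal groups than in B2, Atf4 is lower in both, and Creld2, Eif2ak3 and Fkbp11 set B2B1 apart from both other groups.

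The 3 membrane sensors of unfolded protein did not change together. Ern1, which encodes IRE1 alpha and lies at chr11:106397620-106487796, had 24.3, 23.4 and 23.8 TPM in B2B1, 37.3, 27.0 and 25.0 TPM in B1 and 6.01, 6.00 and 6.48 TPM in B2 libraries. Every peritoneal library was above every B2 library, and every B1 library was above every B2B1 library. On the log2(TPM + 1) scale it was 3.46-fold higher in B2B1 and 4.24-fold higher in B1 than in B2 (adjusted p = 5.45e-06 and 2.99e-06, limma), and B2B1 differed from B1 by -0.29 ± 0.13 on the log2 scale (adjusted p = 0.155). Atf6 had 57.0, 61.7 and 84.1 TPM in B2B1, 87.3, 53.5 and 69.9 TPM in B1 and 29.4, 30.1 and 26.5 TPM in B2 libraries. B2 lay below all other libraries, and B2B1 and B1 overlapped (log2 fold changes against B2 1.19 ± 0.19 in B2B1 and 1.24 ± 0.19 in B1, adjusted p = 0.00049 and 0.000559, limma).

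Eif2ak3, which encodes PERK, had 60.7, 70.1 and 62.6 TPM in B2B1, 128.5, 87.6 and 106.6 TPM in B1 and 88.9, 85.0 and 84.9 TPM in B2 libraries. B2B1 lay below all other libraries, and the lowest B1 library lay within the B2 range. It fell by 0.72 ± 0.12 in B2B1 against B1 (adjusted p = 0.00505) and by 0.42 ± 0.12 in B2B1 against B2 (adjusted p = 0.0156), while B1 differed from B2 by 0.30 ± 0.12 (adjusted p = 0.0693, limma). The call against B2 was lost under both scalings and without B2 library 1.

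The transcription factors downstream of the sensors gave another picture. Xbp1, the target of IRE1, had 97.7, 79.1 and 110.4 TPM in B2B1, 83.2, 116.2 and 95.6 TPM in B1 and 95.3, 78.6 and 95.4 TPM in B2 libraries. The groups overlapped throughout (log2 fold changes against B2 0.08 ± 0.15 in B2B1 and 0.12 ± 0.15 in B1, adjusted p = 0.649 and 0.526, limma). Ddit3, the stress factor CHOP, also overlapped, at 45.9 ± 8.83 TPM in B2B1, 43.6 ± 4.31 in B1 and 41.5 ± 9.64 in B2 cells, with log2 fold changes against B2 of 0.15 ± 0.19 in B2B1 and 0.09 ± 0.19 in B1 (adjusted p = 0.506 and 0.7, limma). Atf4, whose translation PERK raises, had 38.6, 38.2 and 47.3 TPM in B2B1, 46.3, 46.7 and 49.3 TPM in B1 and 61.3, 60.4 and 68.5 TPM in B2 libraries. Every peritoneal library was below every B2 library, and Atf4 fell by 0.61 ± 0.09 in B2B1 and by 0.41 ± 0.09 in B1 (adjusted p = 0.000393 and 0.00504, limma). B2B1 differed from B1 by -0.20 ± 0.09 (adjusted p = 0.161).

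Directly between the 2 peritoneal groups, 4 of the 48 genes were higher in B2B1 than in B1 (Creld2, Sec11c, Derl3 and Edem1) and 2 were lower (Fkbp11 and Eif2ak3). The shares of all genes were 6.93% higher and 12.1% lower. Groups did not overlap for 13 of the 48, against 35.7% of all genes, and 1 gene was higher (Derl3) and 1 lower (Fkbp11) by at least 1 on the log2 scale, against 1.88% and 1.84% of all genes. The median log2 fold change of the 48 was 0.06, and that of all genes -0.06. With median-of-ratios scaling, 7 ER genes were higher and 2 lower, and 1048 of all genes were higher and 942 lower. The number higher was 8 without B1 library 2, 2 without B1 library 1, and 1 without B1 library 3 or without B2B1 library 3. Over all genes, leaving out 1 library at a time gave 531 to 1019 higher. Edem1, Fkbp11 and Eif2ak3 passed in every alternative tried. The Y-linked gene Ddx3y was at 56.9 and 61.7 TPM in B2B1 libraries 1 and 2 and at most 0.285 TPM in B1 libraries. The part of sex in this comparison was not tested.

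Libraries of 1 group differed in the chaperones. In B1 library 2, the 19 chaperones and folding enzymes had a median of 1.48 times the mean of B1 libraries 1 and 3, with 12 of them at 1.3 times or more, against a median of 1.02 and 13.3% at 1.3 times or more over all genes. Sdf2l1 was 2.52-fold, Hyou1 1.85-fold and Pdia6 1.82-fold higher in that library. The translocon, degradation and stress sensing genes had medians of 1.08, 1.04 and 0.923 times. Of the 6 stress sensing genes, Atf6, Eif2ak3, Ern1 and Atf4 were at 0.680, 0.746, 0.867 and 0.978 times. Xbp1 and Ddit3 were at 1.3 and 1.17 times. In B2 library 2 the chaperones had a median of 0.825 times the mean of B2 libraries 1 and 3, with 14 of 19 under 0.9 times, against 16.8% of all genes. In B2B1 library 3 they had a median of 1.20 times the mean of libraries 1 and 2, and the 6 stress sensing genes one of 1.23 times. The median over all genes was 0.9996 times. At 1.3 times or more were 5 of the 19 chaperones and 1 of the 6 stress sensing genes, against 6.46% of all genes.

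The promoter matches overlapped with the roles: 8 of the 11 genes with an element were chaperones and 3 were degradation genes, while the 28 with neither held 8 chaperones and 10 translocon genes. The 11 genes with an ERSE or ERSE-II had a median of 1.51 times in B1 library 2, and 8 of the 11 were at 1.3 times or more. The 28 genes whose window held neither had a median of 1.10 times, and 4 of the 28 were at that level. Within the chaperones, the medians were 1.52 times for the 8 with an element and 1.26 times for the 8 with neither, whose highest was Sdf2l1. The 3 chaperones without a window, Hyou1, Manf and Sil1, were at 1.85, 1.72 and 1.02 times. The medians of the 11 and the 28 were 1.21 and 1.03 times in B2B1 library 3, and 0.825 and 0.955 times in B2 library 2. Between the cell types, 4 of the 11 genes with an element were higher in B2B1 than in B2 (Hsp90b1, Creld2, Derl3 and Herpud1) and 0 were lower. Of the 28 with neither, 13 were higher and 6 lower (21% and 42% of all genes). In B1 against B2, 1 of the 11 (Derl3) and 10 of the 28 were higher, and 4 of the 28 were lower (18% and 33.9% of all genes). The median log2 fold changes of the 11 and the 28 were 0.29 and 0.18 in B2B1 against B2 and 0.17 and 0.18 in B1 against B2. No test was made between the promoter classes, and the libraries were singled out after their values were seen.

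**Figure D4:**
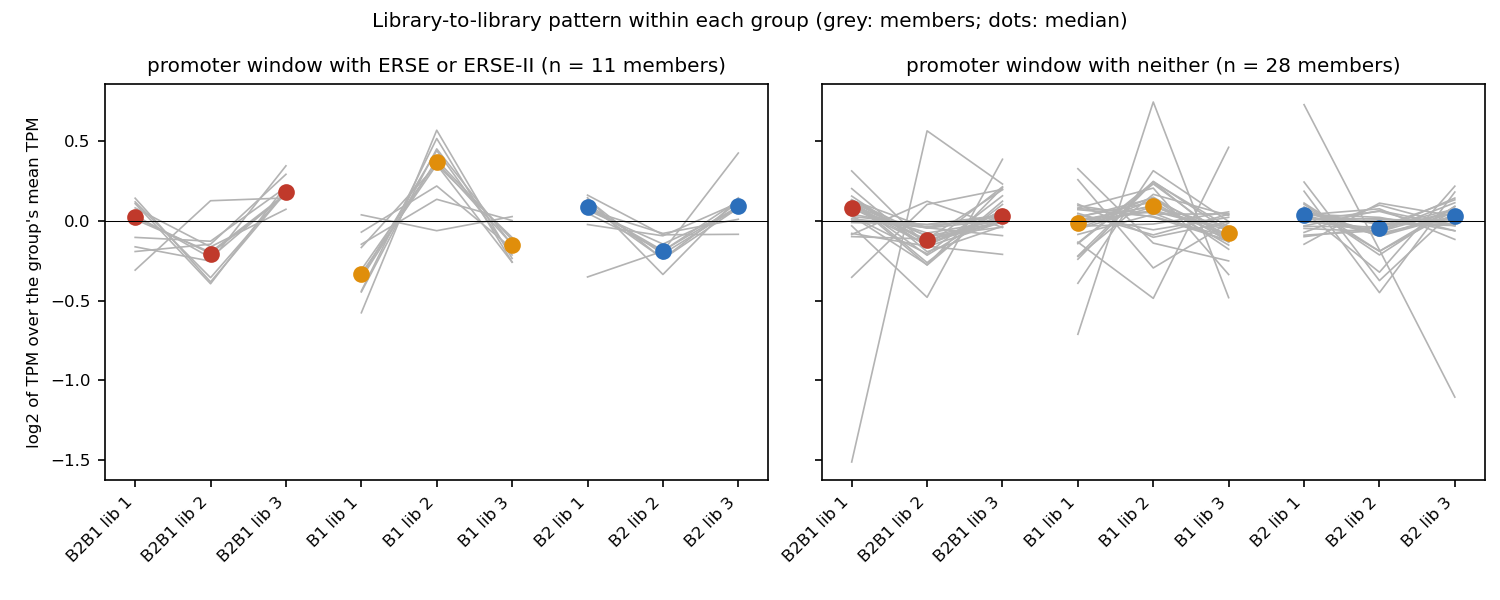
Log2 of each gene's TPM over its group's mean TPM in each of the 9 libraries, with 1 grey line per gene and group and the median as a dot. The left panel has the 11 genes with an ERSE or ERSE-II and the right panel the 28 with neither. In the left panel the medians are high in B1 library 2 and B2B1 library 3 and low in B2 library 2, and in the right panel they stay nearer 0.

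Other values also differed between these libraries. The summed TPM of 15 proliferation markers was 423.1, 312.5 and 288.9 in B2B1 libraries. It was 214.3, 405.4 and 222.0 in B1 and 255.6, 243.2 and 266.1 in B2 libraries. Of the 14 markers tested, 7 were higher in B2B1 than in B2, all by at least 1 on the log2 scale, and 1 was lower. In B1 against B2, 0 were higher and 1 was lower. The shares of all genes were 21% higher and 42% lower in B2B1, and 18% higher and 33.9% lower in B1. B1 library 2, high for chaperones, had the highest sum in its group. B2B1 library 3, also high for chaperones, had the lowest sum in its group, as did B2 library 2, low for chaperones. Pcna alone made up 174.6, 158.8 and 176.8 TPM of the sums in B2 libraries. The mean log2(TPM + 1) of the 15 markers was 2.388, 2.52 and 2.551 in B2 libraries, so by that measure library 2 was not the lowest. It was 4.059, 3.214 and 3.152 in B2B1 libraries, with library 3 again the lowest. Xist was at 0.355 to 0.461 TPM in B2B1 libraries 1 and 2 and in B2 library 2, where the Y-linked gene Ddx3y was at 56.9 to 75.3 TPM, and at 180.4 to 298.1 TPM in the other 6. B2 library 2, the low library for chaperones, was therefore the library of its group with Y-linked expression. B2B1 library 3 was the library of its group without such expression. All B1 libraries had Xist at 211.7 to 298.1 TPM and Ddx3y at most 0.285 TPM, so these genes did not set B1 library 2 apart. The libraries of B2B1 and of B2 thus did not all come from mice of 1 sex. The share of libraries with Y-linked expression therefore differed between the groups of every comparison. The part of proliferation and of sex in the differences between libraries and between groups was not tested. Without B1 library 2, the number of ER genes higher in B1 than in B2 was 16, with Eif2ak3 gained and Pdia3 lost. The number lower was 7, with Calr, Dnajb11, Fkbp2 and Ssr2 gained and Edem3 lost. Leaving out 1 library at a time gave 1713 to 2043 of all genes higher and 3038 to 3928 lower in this comparison.

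Markers of plasma cells, the cell type best known for this machinery, summed to 328.0 to 428.8 TPM in B2B1, 322.6 to 357.1 in B1 and 178.2 to 207.3 in B2 libraries. Of the 6 tested, 4 were higher in B2B1 and 3 in B1 than in B2 (21% and 18% of all genes), and 0 were lower (42% and 33.9% of all genes). Tnfrsf13b, the receptor TACI, gave the largest part of the sum in every group, at 176.8 ± 41.7 TPM in B2B1, 204.4 ± 14.1 in B1 and 99.3 ± 11.9 in B2 cells. Prdm1, which encodes the plasma cell regulator Blimp-1, averaged 14.1 ± 7.20 TPM in B2B1, 16.0 ± 7.0 in B1 and 0.586 ± 0.156 in B2 cells. Irf4, another such regulator, averaged 152.8 ± 12.4 TPM in B2B1, 112.3 ± 13.7 in B1 and 71.9 ± 1.15 in B2 cells. The surface marker Sdc1 averaged 1.87 TPM in B2B1, 0.801 in B1 and 0.654 in B2 cells, and Tnfrsf17 was listed at 0 in every B1 and B2 library and in 1 of the 3 B2B1 libraries. Slamf7, at 6.58 to 15.3 TPM over all libraries, did not pass. Ly6c2 was at 47.6 TPM in B2B1 library 1 and at most 6.02 TPM in every other library, and did not pass either. The part of plasma cells in the changes of the ER genes was not tested.

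Genes of the same pathway outside the 48 moved in both directions. The counts below stand beside 21% of all genes higher and 42% lower in B2B1 against B2, and 18% higher and 33.9% lower in B1 against B2. Of 16 other oxidoreductases and folding enzymes tested, 5 were higher and 3 lower in B2B1 than in B2, and 6 were higher and 2 lower in B1 than in B2. Erp29, a chaperone of the disulfide isomerase family, averaged 505.6 ± 44.2 TPM in B2B1, 447.5 ± 20.8 in B1 and 279.8 ± 18.4 in B2 cells (adjusted p = 1.91e-05 for B2B1 and 0.000112 for B1 against B2, limma). Txndc5, a disulfide isomerase, averaged 159.2 ± 22.5 TPM in B2B1, 216.1 ± 13.6 in B1 and 117.0 ± 9.48 in B2 cells, and rose in both against B2 (adjusted p = 0.00552 for B2B1 and 0.000132 for B1, limma). Qsox1, a sulfhydryl oxidase, had 11.8 to 12 TPM in B2B1, 9.17 to 11.2 in B1 and 12.8 to 15.3 in B2 libraries, and fell in both (adjusted p = 0.0478 for B2B1 and 0.00307 for B1, limma), with the call in B2B1 lost under both scalings. Of 15 genes of the oligosaccharyltransferase and of glycan trimming, 3 were higher and 1 lower in B2B1 than in B2, and 2 were higher and 0 lower in B1. Of 12 genes of signal recognition and other translocation, 1 was higher in each, Tram2, and 3 were lower in B2B1 and 1 in B1. Tram2, a relative of the translocating chain protein Tram1, averaged 16.1 ± 2.34 TPM in B2B1, 18.9 ± 3.98 in B1 and 7.38 ± 0.235 in B2 cells.

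Of 28 genes of the COPII and COPI vesicle coats and cargo receptors, 7 were higher and 5 lower in B2B1 than in B2, and 7 were higher and 6 lower in B1, and the numbers higher were close to the shares of all genes (21% and 18%). Sec24d, a cargo-binding subunit of COPII, averaged 10.3 ± 2.06 TPM in B2B1, 9.04 ± 0.800 in B1 and 1.98 ± 0.316 in B2 cells (adjusted p = 9.07e-06 for B2B1 and 2.17e-05 for B1 against B2, limma). Sec16a, which organises ER exit sites, fell by 0.57 ± 0.06 in B2B1 and by 0.44 ± 0.06 in B1 on the log2 scale (adjusted p = 4.12e-05 and 0.000297, limma). Of 15 other genes of ER-associated degradation, 4 were higher and 4 lower in B2B1, and 2 were higher and 3 lower in B1. The membrane ubiquitin ligase Rnf139 averaged 23.5 ± 1.07 TPM in B2B1, 31.7 ± 2.81 in B1 and 47.0 ± 1.73 in B2 cells, and fell in B2B1 against B1 as well (log2 fold change -0.41 ± 0.08, adjusted p = 0.00737, limma).

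Of 11 other transducers of ER stress, 2 were higher and 4 lower in B2B1 than in B2, and 3 were higher and 3 lower in B1. Creb3l2, a membrane-bound transcription factor of the same family as ATF6, averaged 39.2 ± 6.91 TPM in B2B1, 37.3 ± 1.21 in B1 and 3.39 ± 0.553 in B2 cells, with log2 fold changes of 3.19 ± 0.13 in B2B1 and 3.13 ± 0.13 in B1 (adjusted p = 2.08e-07 and 2.41e-07, limma). Atf6b, the paralog of Atf6, averaged 44.0 ± 0.754 TPM in B2B1, 43.9 ± 2.86 in B1 and 84.7 ± 3.52 in B2 cells, and fell by 0.93 ± 0.06 in both (adjusted p = 3.62e-06 and 4.69e-06, limma). Mbtps1, the protease that cleaves ATF6 in the Golgi, fell to 52.3 ± 0.0606 TPM in B2B1 and 56.6 ± 3.42 in B1 cells, against 75.6 ± 2.17 in B2 cells.

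Of 21 targets of ATF4 and CHOP, 7 were higher and 5 lower in B2B1 than in B2, and 6 were higher and 2 lower in B1. Atf3, a stress-induced transcription factor, had 15.9, 40.6 and 46.1 TPM in B2B1, 44.5, 22.6 and 66.1 TPM in B1 and 0.537, 0.232 and 0.562 TPM in B2 libraries. No library of B2 came near a peritoneal one, and the log2 fold changes against B2 were 4.49 ± 0.44 in B2B1 and 4.86 ± 0.44 in B1 (adjusted p = 2.99e-05 and 2.66e-05, limma). Asns and Phgdh, enzymes of asparagine and serine synthesis, rose in both while Atf4 mRNA fell. Phgdh averaged 221.9 ± 42.4 TPM in B2B1, 165.7 ± 45.3 in B1 and 50.2 ± 2.16 in B2 cells (adjusted p = 1.71e-05 for B2B1 and 0.000102 for B1 against B2, limma). Asns averaged 5.34 ± 0.581 TPM in B2B1, 2.56 ± 0.581 in B1 and 0.799 ± 0.226 in B2 cells, and was higher in B2B1 than in B1 (log2 fold change 0.84 ± 0.16, adjusted p = 0.00797, limma). Ppp1r15a, the phosphatase subunit that reverses the action of PERK, fell by 0.71 ± 0.14 in B2B1 and by 0.87 ± 0.14 in B1 (adjusted p = 0.00172 and 0.000768, limma).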

How the data were processed

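RNA-seq of 9 mouse B cell libraries was analysed, 3 each of B2B1, B1 and B2 cells, grouped by their labels. Per the labels' protocols, a Qiagen RNeasy micro kit served for RNA and an Illumina TruSeq RNA kit for libraries. The submitters' processing notes name CASAVA 1.8.2, kallisto and the build mm10. The sources used here do not give kallisto's version, the transcript set or the use of strand. The deposited table holds TPM for 22178 genes, which the authors scaled by transcript length and library total, so depth is unknown and counting error could not be estimated.

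From these, log2(TPM + 1) was computed for the 11099 genes with a mean of at least 1 TPM. All 3 comparisons were fitted in 1 model over the 9 libraries with limma 3.58.1 in R 4.3.3 (lmFit, contrasts.fit and eBayes with trend, prior degrees of freedom 2.92, no covariate). Two-sided p-values were Benjamini-Hochberg adjusted over all genes of a comparison, with calls at an adjusted p under 0.05. The smallest p of an exact permutation test of 3 libraries against 3 is 0.1, so none was used. The fit was tested on simulated data, and the outcome is not given here. The members, the pathway and marker lists and the alternatives were chosen with earlier results of these data known. Genes given with values are the members, up to 3 called genes of each pathway list per direction with the smallest adjusted p, and members needed to show that they did not pass. Some of those lists' genes are given by count only, and marker genes given singly were chosen after their values were seen. Loci, promoters and exon overlaps come from RefSeq on GRCm38.p6 and GENCODE M21, and all 48 members were matched. Figures used Python 3.11.15 and matplotlib 3.10.9. Alternatives were other pseudocounts (0.1 and 0.5), other filters, 2 scalings, only the 2 groups compared, no trend, library weights, a replicate block, and leaving out libraries.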

Additional observations from a re-analysis of the deposited data

Results flagged for a closer look

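Fkbp11 and Eif2ak3 were picked out because their log2 fold changes against B2 had opposite signs in B2B1 and B1 and the difference between B2B1 and B1 passed its own test. The fold changes of B1 against B2 were 0.21 for Fkbp11 and 0.30 for Eif2ak3 and did not pass, although that of Eif2ak3 passed under both scalings. The log2 fold change of Fkbp11 in B2B1 against B1 was -2.73 (SE 0.30, adjusted p = 0.000571, limma), with all 3 B2B1 libraries below all 3 B1 libraries. The log2 fold change of Eif2ak3 was -0.72 (SE 0.12, adjusted p = 0.00505, limma), again with no overlap. Both passed in every alternative tried, and no explanation was tested.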

How the results depend on the processing

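Of 56 calls of ER genes over the 3 comparisons, 41 passed in every alternative and 0 changed sign: 25 of 30 in B2B1 against B2, 13 of 20 in B1 against B2 and 3 of 6 in B2B1 against B1. Scaling by the median of ratios and quantile normalization each gave 2 ER genes lower in B1 than in B2 instead of 4, and medians of 0.50 and 0.43 instead of 0.30 in B2B1 against B2. Under median-of-ratios scaling the summed TPM of B2 cells became 4722 for all 48 genes, 1285 for the translocon, 560.7 for degradation and 291.0 for the stress sensing genes, and under quantile normalization 1323 for the translocon and 568.3 for degradation. In B2B1 against B1, 7 ER genes were higher under median-of-ratios scaling, 7 with library weights and 1 with only these groups in the fit. That last fit also gave 448 higher and 681 lower genes in all instead of 769 and 1339. The count of all genes with library weights is not given here. Leaving out 1 library at a time gave 1 to 8 ER genes and 531 to 1019 of all genes higher, and 789 to 1426 of all genes lower, in that comparison. It gave 3 to 7 ER genes and 3038 to 3928 of all genes lower in B1 than in B2. When B2B1 library 1 and B1 library 2 were both left out, 7 ER genes were lower. The causes of these changes were not tested.

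The sign of many ER genes that did not pass was not stable. It turned in at least 1 alternative for 13 of 18 such genes in B2B1 against B2, 12 of 28 in B1 against B2 and 19 of 42 in B2B1 against B1, and under at least 1 of the scalings for 9, 4 and 7 of them. In B2B1 against B2, Edem2 was 0.19 under median-of-ratios scaling and 0.18 under quantile normalization and passed in both, and Sec11a was 0.17 and 0.090 and passed in the first. Leaving out 1 library gave -0.080 to 0.029 for Edem2 (0.0050 without B2 library 1 and 0.0052 without B2B1 library 2) and -0.096 to 0.017 for Sec11a. In B1 against B2, the log2 fold change of Hspa5 was -0.046 with library weights. Leaving out 1 library gave -0.14 (B1 library 2, also with B2B1 library 1 left out) to 0.31, with -0.0072 without B2 library 2. That of Xbp1 was -0.0040 (without B1 library 2, also with B2B1 library 1 left out) to 0.23, and that of Ddit3 was -0.11 (without B2 library 2) to 0.20. In B2B1 against B2, the range was -0.050 (without B2B1 library 3) to 0.25 for Hspa5, -0.025 (without B2B1 library 3) to 0.21 for Xbp1, with -0.0076 without B2 library 2, and -0.052 (without B2 library 2) to 0.32 for Ddit3.

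No clear pairing of libraries by replicate number was seen: same-numbered libraries correlated at -0.058 to 0.12, and 3 of 9 correlated best with their own number. The highest value, that of library 3 of B2B1 and B2, was above the threshold of 0.1 set for this check. With 3 libraries per group, weak correlations cannot exclude pairing. With the replicate number as a block, 21 ER genes were higher and 6 lower in B2B1 against B2, with Hsp90b1, Manf and Sdf2l1 lost. The counts were 16 and 4 in B1 against B2 and 4 and 2 in B2B1 against B1, as without the block. Counts of all genes with the block are not given here. A change of the ER genes therefore cannot be told from one over all genes. The TPM give no depth, so the precision of low genes such as Igj and Fkbp11 rests on the spread between libraries alone.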
